A study of Mus musculus with 32 samples.

Results

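The keratins are the intermediate filament proteins of epithelial cells, and their mRNAs were followed in the lungs of mice with and without glutathione reductase. The members were all genes whose platform symbol was Krt followed by a number, each read by whichever of its probe sets had the highest average log2 signal. This gave 48 keratins (25 of type I and 23 of type II) among 18193 genes with a single symbol on the array. Of these, 20 exceeded the median of all signals on the arrays, 100.4 units, on at least 3 arrays and entered the tests. The other 28 did not: 24 lay under that median on every array, and Krt17, Krt36, Krt222 and Krt6b passed it on 1 or 2 arrays, with a highest value of 139 units for Krt6b. The members were chosen by their symbol and the probe sets selected on the mean signal over all arrays, while the interest in simple against stratified keratins came from their levels on these arrays, which are therefore described as they were measured.

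A keratin filament is built from pairs in which a type I keratin binds a type II keratin, so a cell needs a member of either type. Krt8 and Krt18 form the pair of simple, single-layered epithelia such as the alveolar and airway lining, where Krt7 and Krt19 are also made. Krt5 and Krt14 form the pair of the basal layer of stratified epithelia and of basal airway cells, and Krt4 and Krt13 the pair of the upper layers of the moist stratified epithelium of the mouth and oesophagus. Desmosomes tie keratin filaments of neighbouring cells together, and hemidesmosomes tie them to the basement membrane. In the mouse the type I genes lie in a cluster on chromosome 11 and the type II genes in a cluster on chromosome 15. Of the 48 members, 24 were on chromosome 11 and 24 on chromosome 15 (RefSeq, GRCm38.p6), with the type I gene Krt18 beside the type II genes.

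Gsr-WT mice carry glutathione reductase, the enzyme that returns oxidised glutathione to its reduced form, and Gsr-KO mice lack it; both were C3H/HeN. RNA from part of the lung of each animal was hybridised to Affymetrix mouse arrays, 32 in all in 10 groups, so the p-values measure the spread between animals. Embryonic lungs were taken at day 19 (E19), without any exposure, in 4 WT and 4 KO animals. Newborns stayed with their dams in room air or in hyperoxia, 100% oxygen, from day 0 to day 5, and lungs were taken at day 5 (P5) in 3 animals of each genotype and exposure. Others of the same exposures were left to reach day 56 (P56), again with 3 animals of each genotype and exposure. The RNA came from whole tissue, so for every result below, fewer cells of a type and less RNA per cell cannot be told apart.

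Per array, the signal total ran from 31172700 to 35272200 and the median from 68.4 to 124.6. Gsr read 498 to 1541 units on the 16 WT arrays and 138 to 257 on the 16 KO arrays, without overlap. Several arrays stood apart. KO E19 replicate 1 and WT P56 hyperoxia replicate 2 had raised 3′ to 5′ ratios of their control transcripts, with mean log2 ratios of 4.27 and 2.81 against at most 1.55 on the other arrays. KO P5 air replicate 1 correlated most closely with an E19 array, KO E19 replicate 2 (r = 0.976 over all genes tested), and had 6445 units of Krt19 against 2653 and 2321 in its group. WT E19 replicate 1 was in turn nearest to that P5 array (r = 0.974), and its liver level was -0.34 against 5.27 to 6.32 on the other WT E19 arrays (log2, centred on each gene). Results that rest on these arrays are given without them where that changed a call. Changes are given in log2 units beside their standard errors (SE), and a keratin "rose" or "fell" where limma, adjusting over 13345 genes, put p under 0.05. A fold given as "at least" sets a group at 100.4 units because all its arrays were dimmer than that.

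The sequences before the start sites are shown for Krt13 and Krt5, 2 keratins that moved together across the arrays, and for Krt8 and Krt18, a pair with a level over the median everywhere. They come from RefSeq (GRCm38.p6), which held promoters of 32 of the 48 members, 33 promoters in all; Krt4, Krt15, Krt19, Krt6a and Krt80 were not among them. Each is the 250 bases before the start, read 5′ to 3′ on the strand of the gene, and capitals mark the letters TGANTCA (the AP-1 motif), TATAAA (the TATA box) and CACCC (the CACCC box) on either strand; none of the marked runs overlaps another. Krt13 lies on the minus strand at chr11:100120578-100120827, Krt5 on the minus strand at chr15:101712906-101713155, Krt8 on the minus strand at chr15:102004343-102004592 and Krt18 on the plus strand at chr15:102027966-102028215.

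Krt13: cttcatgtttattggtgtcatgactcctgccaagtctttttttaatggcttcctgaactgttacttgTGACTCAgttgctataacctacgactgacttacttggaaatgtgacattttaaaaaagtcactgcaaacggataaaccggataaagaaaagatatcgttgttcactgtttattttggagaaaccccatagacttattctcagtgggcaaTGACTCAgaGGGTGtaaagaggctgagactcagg
Krt5: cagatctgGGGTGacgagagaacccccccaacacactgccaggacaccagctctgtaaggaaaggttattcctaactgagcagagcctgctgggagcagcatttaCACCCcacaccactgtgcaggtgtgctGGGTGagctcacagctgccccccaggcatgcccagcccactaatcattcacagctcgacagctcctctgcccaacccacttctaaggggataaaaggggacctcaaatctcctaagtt
Krt8: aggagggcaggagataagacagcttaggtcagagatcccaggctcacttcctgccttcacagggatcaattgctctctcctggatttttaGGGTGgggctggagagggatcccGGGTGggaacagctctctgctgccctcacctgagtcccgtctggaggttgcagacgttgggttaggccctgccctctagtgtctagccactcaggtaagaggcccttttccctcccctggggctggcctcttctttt
Krt18: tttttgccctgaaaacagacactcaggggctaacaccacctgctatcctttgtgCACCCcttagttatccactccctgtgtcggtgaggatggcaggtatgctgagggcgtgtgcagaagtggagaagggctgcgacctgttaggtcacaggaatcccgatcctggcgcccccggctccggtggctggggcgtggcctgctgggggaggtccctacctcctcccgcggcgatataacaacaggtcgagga

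The Krt13 window held TGANTCA 183 and 34 bases before the start. A second Krt13 start in RefSeq lies upstream of the window printed above, as the gene is on the minus strand. Its own window, at chr11:100121567-100121816, held TGANTCA 196 bases before that start. These were the only matches among the 33 keratin promoters, 6.06% of them, against 6.75% of all 32851 promoters of the same length. Krt5 had no match to it in this window but 3 to CACCC, at 242, 145 and 118 bases, and Krt8 had 2, at 160 and 137 bases. CACCC was found in 81.8% of the keratin promoters and in 52% of all promoters. TATAAA was found in 48.5% of the keratin promoters against 12.4% of all. Among the keratins it stood before 14 of the 20 promoters of untested members and 2 of the 13 of tested members, 1 of which was Krt10, 26 bases before its start; none of the 4 sequences above holds it. A match is a run of letters and was not tested as a binding site.

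The simple keratins were present on every array and were called in no genotype or oxygen comparison. Krt8, the type II keratin of simple epithelium, lay between 5122 and 10067 units over the 32 arrays, and its partner Krt18 between 2130.3 and 4287. Krt7, the type II keratin of ducts and alveolar epithelium, lay between 2349.6 and 8460.3, and Krt19, a small type I keratin of simple and transitional epithelium, between 2200.2 and 7743. At P5 Krt8 read 5734, 6382 and 6071 in WT air, 6685, 7795 and 7365 in WT hyperoxia, 8341, 5357 and 5222 in KO air and 5205, 7844 and 6231 in KO hyperoxia. All 3 WT hyperoxia values were above the 3 in WT air, whereas the KO groups overlapped. None of the 4 simple keratins rose or fell in any of the 5 genotype comparisons, the 4 oxygen comparisons or the 2 genotype-by-oxygen terms. In KO at P5 the oxygen change of Krt8 was 0.04 (SE 0.19, 95% interval -0.35 to 0.43), that of Krt18 0.16 (-0.24 to 0.55), that of Krt7 0.27 (-0.18 to 0.73) and that of Krt19 -0.20 (-0.87 to 0.47). These intervals bound the changes that 3 arrays per group leave possible. In WT at P5 the oxygen change of Krt18 was 0.45 (95% interval 0.06 to 0.85; limma adjusted p = 1), with 2184, 2374 and 2557 units in air and 3063, 3397 and 3305 in hyperoxia, without overlap. At E19 Krt7 changed by -0.53 in KO against WT (SE 0.19, limma adjusted p = 0.0619); its lowest value, 2349.6, was on KO replicate 1, the array with the raised 3′ to 5′ ratio, and the others read 6140.1, 4424 and 5063.

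**Figure D1:**
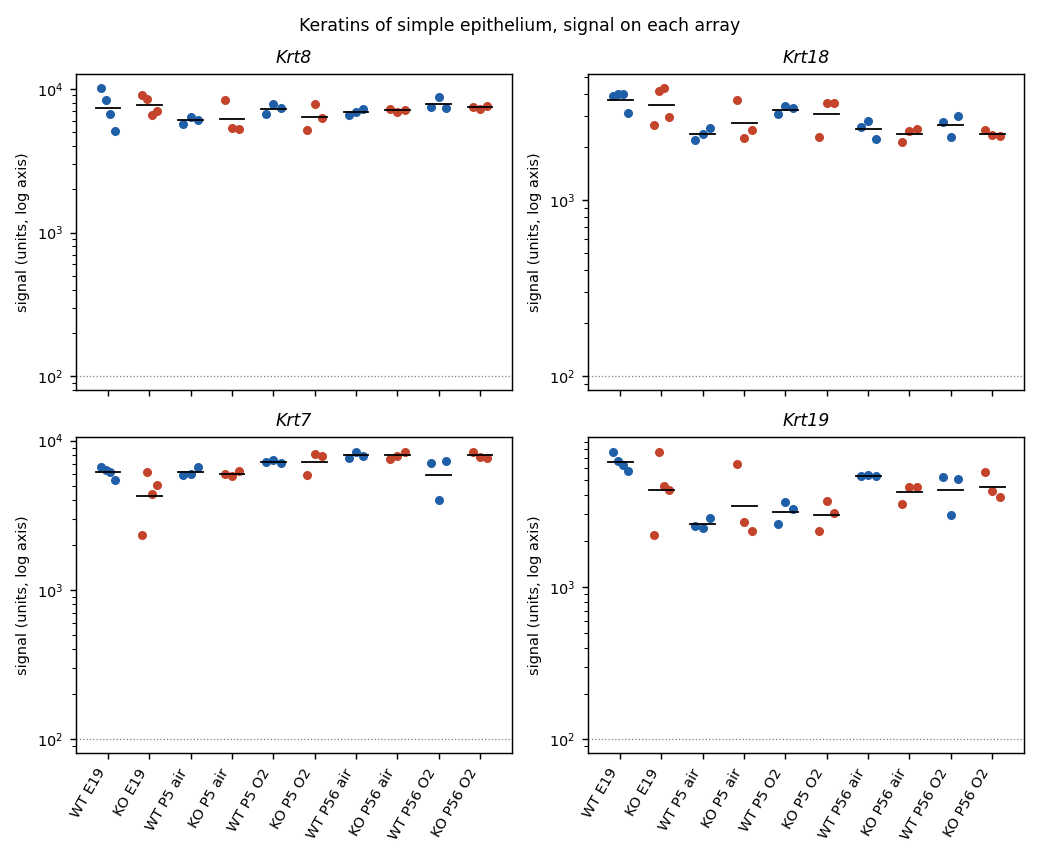
Signal of the simple keratins Krt8, Krt18, Krt7 and Krt19 (units, log axis) on each of the 32 arrays, by group; blue points are WT and red points KO arrays, and black bars are the geometric means. Krt8 stays between 5122 and 10067 units, while the Krt19 bars are lower at P5 than at E19 and P56, with KO P5 air replicate 1 at 6445.

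Krt13, Krt4 and Krt5 were near or under the median on most arrays and high on a few. Krt13, the type I keratin of moist stratified epithelium, read 3271, 39.3, 1179 and 46.97 units in WT at E19 and 7.02, 8.71, 4.14 and 4.62 in KO. At P5 it read 2875, 223 and 99.3 in WT air, 23.3, 27.8 and 26.2 in WT hyperoxia, 39.2, 5.49 and 30.6 in KO air and 2071, 3311 and 1599.6 in KO hyperoxia. All 3 KO hyperoxia lungs were high, and so were 2 of the 4 WT lungs at E19 and 1 of the 3 WT lungs in P5 air, while the KO lungs at E19 and in P5 air lay under the median. At P56 no array passed 184, the value of KO air replicate 1.

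Krt4, the type II partner of Krt13, was high on the same arrays. It read 4403, 96.98, 1307 and 131 in WT and 81.9, 57.6, 82.8 and 77.9 in KO at E19. At P5 it read 4052, 336 and 128 in WT air, 82.6, 53.2 and 83.4 in WT hyperoxia, 83.2, 49.7 and 54.97 in KO air and 3172, 4366 and 2499 in KO hyperoxia. The arrays that were high for Krt13 were also the high ones for Krt4: WT E19 replicates 1 and 3, WT P5 air replicate 1 and the 3 KO P5 hyperoxia arrays. Krt5, the type II keratin of basal cells, read 584, 30.5, 225 and 56.9 in WT at E19, 475, 85.02 and 93.8 in WT P5 air, 68.6, 57.5 and 60.3 in WT P5 hyperoxia, 78.1, 65.7 and 41.1 in KO P5 air and 646, 559 and 495 in KO P5 hyperoxia. The 6 highest arrays were again the same. Krt14, the basal partner of Krt5, stayed low: its highest values were 145, 116 and 108 in KO P5 hyperoxia, 137 on WT P5 air replicate 1 and 128 on WT E19 replicate 1. WT E19 replicate 3, at 44.01, was not among its 6 highest.

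Krt15, a type I keratin of basal and progenitor cells of stratified epithelium, was also highest on these 6 arrays, but it was not low elsewhere at E19. It read 4579, 1284, 2029 and 900.4 in WT and 158, 694, 267 and 233 in KO at E19, without overlap. At P5 it read 1835, 172 and 92.3 in WT air, 79.1, 122 and 178 in WT hyperoxia, 704, 98.1 and 15.1 in KO air and 1802, 2025 and 1310.01 in KO hyperoxia. The value of 704 in KO air came from replicate 1, the array that resembled E19 lungs. At P56 Krt15 lay at 15.2 units or less on all 12 arrays.

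**Figure D2:**
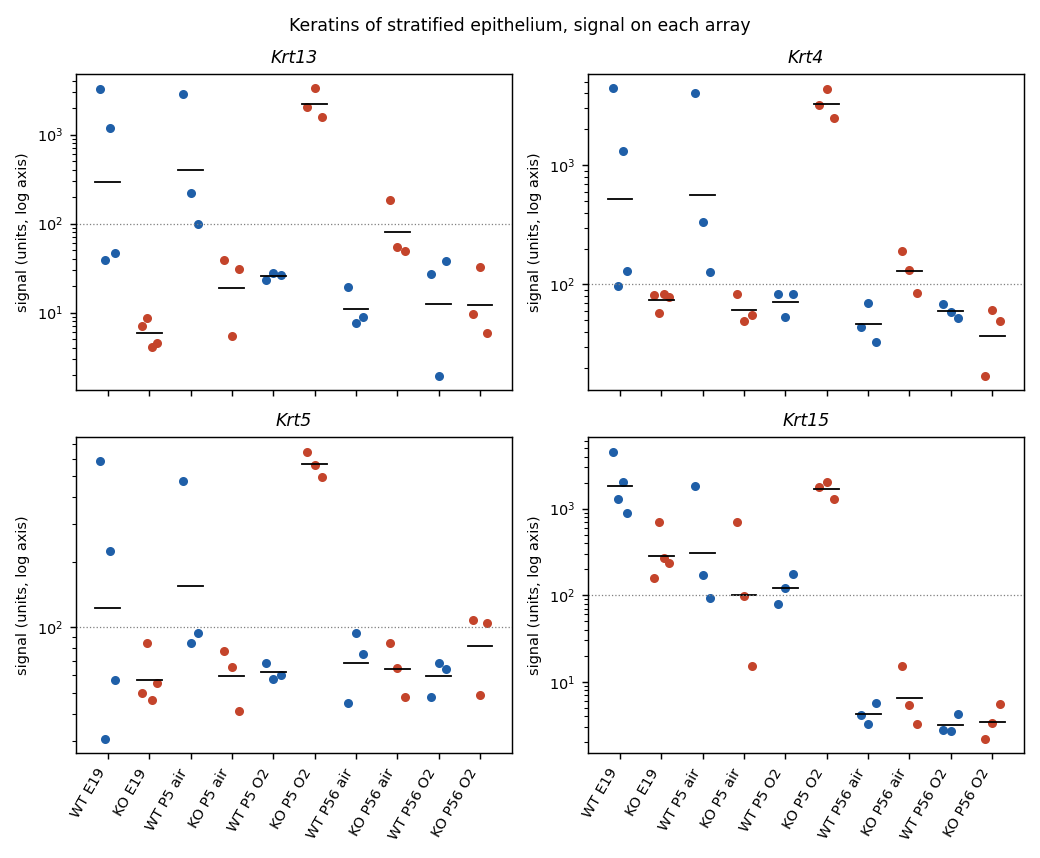
Signal of Krt13, Krt4, Krt5 and Krt15 (units, log axis) on each of the 32 arrays, by group; blue points are WT and red points KO arrays, black bars are the geometric means and the dotted line is the median of all values, 100.4. In KO P5 hyperoxia all 3 arrays are high, whereas for Krt13, Krt4 and Krt5 only 2 of the 4 WT arrays at E19 and 1 of the 3 in WT P5 air are high; Krt15 is above the line on every E19 array.

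Hyperoxia in KO newborns came with a rise of the stratified keratins. Of the 20 keratins tested, 4 rose and none fell in KO hyperoxia against KO air at P5, where 0.337% of all genes tested were called. Krt13 read 2327 ± 884 units (SD, n = 3) with oxygen and 25.1 ± 17.5 (SD, n = 3) without, higher by 5.52 (SE 1.01), or at least 22.1-fold (limma adjusted p = 0.00624). Krt4 read 3346 ± 946 and 62.6 ± 18.001 in the same order (SD, n = 3 each) and was higher by 5.23 (SE 0.91), at least 32.4-fold (limma adjusted p = 0.00402). Both partners of the upper-layer pair rose. Of the basal pair, Krt5 rose by 2.77 (SE 0.56; at least 5.61-fold; limma adjusted p = 0.0172), whereas Krt14 changed by 1.65 (SE 0.50) and did not pass the test (limma adjusted p = 0.316), with no overlap between its groups. Krt15 rose by 3.46 (SE 0.78, limma adjusted p = 0.0423). The median change was 4.00 over the 4 stratified keratins, 0.099 over the 4 simple keratins and -0.009 over all genes tested. Interest in this split came from levels on these arrays, so the medians describe the difference and do not test it. Krt14 passed the filter only with the KO P5 hyperoxia arrays. Krt4 kept its call without any 1 of the 6 arrays; Krt13 lost it without KO air replicate 2 (limma adjusted p = 0.0588) or KO hyperoxia replicate 2 (0.0519), Krt5 without replicate 2 or 3 of either group (0.0648 to 0.0809), and Krt15 without any array but KO air replicate 1. The count of 4 was then 1 without KO air replicate 2 or KO hyperoxia replicate 2 and 2 without replicate 3 of either group. Apart from leaving out 1 array, 11 alternatives were tried, and Krt15 lost its call in 4 of them. Its limma adjusted p reached 0.531 over all alternatives, while Krt13, Krt4 and Krt5 kept their calls in all 11. Skeletal muscle transcripts moved with this comparison: 10 of 12 tested muscle genes rose, and their level on the 3 hyperoxia arrays was 3.16 to 3.64 against -1.08 to 0.35 in air, on a log2 scale centred on each gene; their part in the keratin result was not tested.

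KO lungs in hyperoxia also differed from WT lungs in hyperoxia. Here 3 keratins rose and none fell, against 0.187% of all genes called; both comparisons share the 3 KO hyperoxia arrays, and 4 of the 12 muscle genes rose here too. Krt13 changed by 5.43 (SE 1.01, at least 22.1-fold), with 25.8 ± 2.25 units in WT (SD, n = 3), and Krt4 by 5.06 (SE 0.91, at least 32.4-fold), both with a limma adjusted p of 0.0117. Krt5 changed by 2.74 (SE 0.56, at least 5.61-fold; limma adjusted p = 0.0234). Krt15 changed by 3.54 (limma adjusted p = 0.0536) and Krt14 by 1.61 (0.599), neither called, and for both the groups did not overlap. Same-numbered arrays of these 2 groups deviated together (r = 0.253, 0.107 and 0.167), and with the replicate number as a block 4 keratins were called, Krt15 among them. The call count was 0 without WT hyperoxia replicate 1 or 2 or any of the 3 KO hyperoxia arrays, and 0 with the liver transcript level of each array as a covariate, where Krt13 was at 4.36 (limma adjusted p = 0.13). In a fit of these 2 groups alone it was 5, with Krt14 and Krt15 added. The share of all genes called was not recorded for these other fits.

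The response to oxygen differed between the genotypes for the same keratins. The genotype-by-oxygen term at P5, the oxygen change in KO minus that in WT, was called for Krt13 at 8.63 (SE 1.42), Krt4 at 7.86 (SE 1.29) and Krt5 at 3.86 (SE 0.79), 3 of 20 keratins against 0.135% of all genes. Of the 12 muscle genes 4 were called in this term (median 4.00), and their part in it was not tested. The limma adjusted p was 0.00753 for Krt13 and Krt4 and 0.0332 for Krt5. The term of Krt15 was 4.72 (limma adjusted p = 0.0991). Those of the simple keratins were -0.22 for Krt8 (95% interval -0.77 to 0.33), -0.30 for Krt18 (-0.86 to 0.26), 0.04 for Krt7 (-0.61 to 0.69) and -0.47 for Krt19 (-1.42 to 0.48). WT air replicate 1 enters this term with 2875 units of Krt13: without it the terms were 7.28 for Krt13 (limma adjusted p = 0.0226) and 6.49 for Krt4, still called, and 3.16 for Krt5 (limma adjusted p = 0.17). Krt13 and Krt4 kept the call without any 1 of the 12 arrays, whereas Krt5 kept it only without WT air replicate 2 or 3 and otherwise had a limma adjusted p of 0.0524 to 0.17. Fitted on the 12 P5 arrays only, 0 of these terms were called, with limma adjusted p of 0.113 for Krt13 and Krt4.

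In WT newborns no keratin rose or fell with hyperoxia, where 0.00749% of all genes were called and 4 keratins had an unadjusted p under 0.05 in limma. Krt13 changed by -3.11 (SE 1.01) and Krt4 by -2.63 (SE 0.91), both with a limma adjusted p of 1. All 3 WT hyperoxia lungs lay below all 3 WT air lungs for both genes, with WT air replicate 1 far above its group. In air at P5, KO against WT gave no called keratin, against 0.015% of all genes, with 3 keratins at an unadjusted p under 0.05. Krt13 was at -3.19 and Krt4 at -2.80 (limma adjusted p = 0.663 and 0.688), again without overlap and with the same WT air arrays. With array weights, which give the arrays unequal influence, 11 keratins were called in the WT oxygen comparison and 4 in P5 air. The share of all genes called with these weights was not recorded, so these counts cannot be read as a result about keratins.

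**Figure D3:**
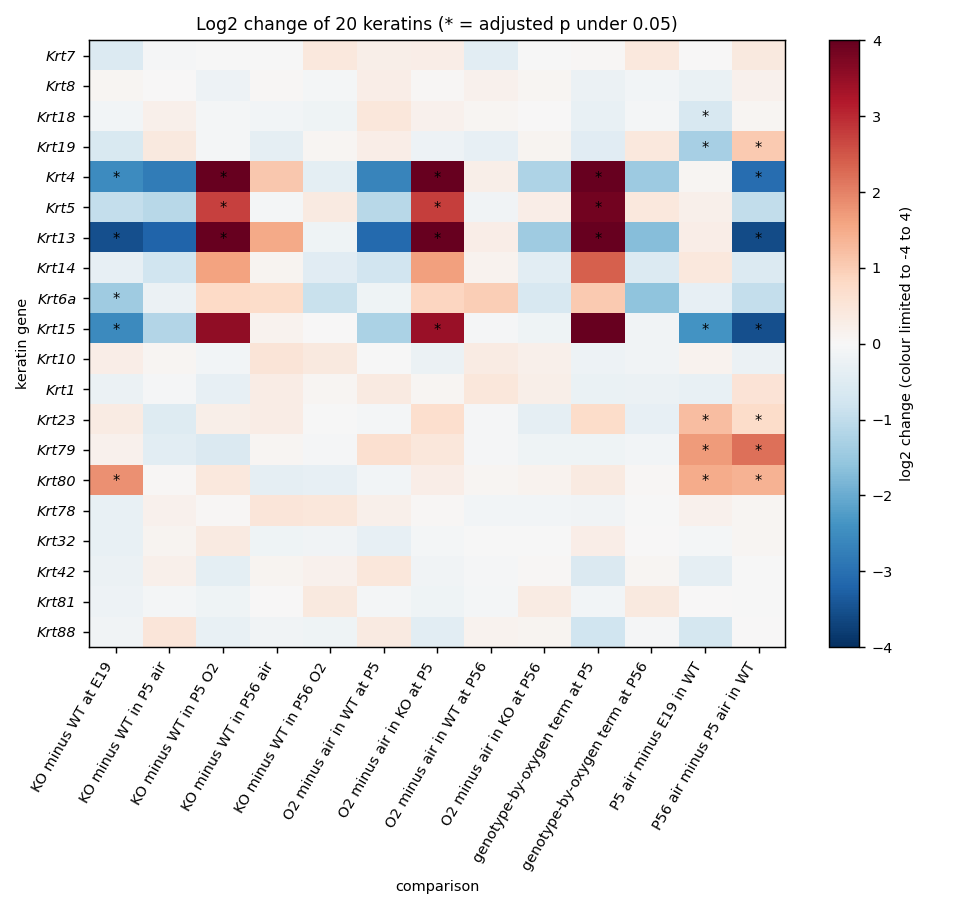
Log2 change of the 20 tested keratins (vertical axis) in the 13 comparisons (horizontal axis); red is higher and blue lower in the first-named group, the colour is limited to -4 to 4, and an asterisk marks a limma adjusted p under 0.05. The simple keratins Krt7, Krt8, Krt18 and Krt19 are pale in every genotype and oxygen column, whereas Krt4, Krt5, Krt13 and Krt15 are coloured in the E19 and P5 columns.

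Before birth 1 keratin was higher and 4 were lower in KO than in WT, 5 of 20 against 15.2% of all genes (6.91% higher and 8.25% lower). Krt80, a type II keratin made in many kinds of epithelium, read 989.8, 1082, 758 and 1138 in KO and 293, 271, 269 and 207 in WT. Every KO array was above every WT array, and the change was 1.82 (SE 0.19, limma adjusted p = 6.42e-07). This call held under every alternative tried, including a fit restricted to E19 and without any 1 array. Krt13 fell by 3.52 on the log2 scale (SE 0.87, limma adjusted p = 0.00692), Krt4 by 2.53 (SE 0.79, limma adjusted p = 0.0303) and Krt15 by 2.54 (SE 0.67, limma adjusted p = 0.0112). With the KO arrays set to the median, Krt13 was at least 2.89-fold and Krt4 at least 5.18-fold lower. Krt6a, a type II keratin induced in injured and activated stratified epithelium, fell by 1.43 (SE 0.45, limma adjusted p = 0.0327), with 340.3, 105, 263 and 144 in WT and 13.1, 112, 124 and 28.7 in KO, and these values overlapped. Krt5 changed by -0.96 (limma adjusted p = 0.174) and Krt14 by -0.33 (0.628). WT replicates 1 and 3 carried most of the WT signal of Krt13 and Krt4: without replicate 1 the change was -2.47 for Krt13, still called, and -1.55 for Krt4 (limma adjusted p = 0.13), and without replicate 3 Krt4 was at -2.13 (limma adjusted p = 0.108). Krt6a lost its call without WT replicate 1 or 3 or KO replicate 1 or 4, and the count of called keratins was 3 when WT replicate 1 or 3 was left out and 4 for KO replicate 1. Liver transcripts moved with this comparison, with the 12 listed liver genes tested all falling in KO and their part not tested further; with their level as a covariate 2 keratins were called, Krt80 and Krt13, and with the E19 arrays fitted by themselves only Krt80. Array weights also left Krt80 and Krt13, and without the filter on dim probe sets 8 keratins were called. The share of all genes called was not recorded for these other fits. Some lung and heart genes moved in the direction of Krt80: 6 of 11 alveolar type 2, 5 of 12 type 1, 5 of 10 club cell and 4 of 12 heart muscle genes rose (medians 0.48, 0.39, 0.42 and 1.76), against 6.91% of all genes. In these lists 1 alveolar type 2 and 1 club cell gene fell, against 8.25% of all genes. The part of these lists in the result was not tested.

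In adult lungs no keratin rose or fell with genotype or with the past exposure. KO against WT gave 0 of 20 keratins in P56 air (0.0599% of all genes called) and 0 in P56 hyperoxia (0.03%, with 0.0225% higher), with 0 keratins at an unadjusted p under 0.05 in limma in either. Hyperoxia against air gave 0 in WT and 0 in KO, where 0% of all genes were called. Again 0 keratins had an unadjusted p under 0.05, against 676 genes in WT and 363 in KO. The genotype-by-oxygen term called 0 keratins (0% of all genes), with 1 keratin, Krt6a, and 330 of all genes at an unadjusted p under 0.05. Krt13 read 19.5, 7.74 and 8.89 units in WT air, 184, 54.97 and 49.8 in KO air, 27.3, 1.94 and 38.3 in WT after hyperoxia and 9.70, 32.95 and 5.84 in KO after hyperoxia. Krt4 read 43.7, 69.4 and 33.2 in WT air and 189.6, 131 and 85.4 in KO air. For both genes the KO air lungs lay above the WT air lungs without overlap, with changes of 1.52 (SE 1.01) and 1.08 (SE 0.91) and limma adjusted p of 0.601 and 0.72. A fit of these 2 groups alone called both. Krt8 changed by 0.07 with past hyperoxia in KO (95% interval -0.32 to 0.46) and by 0.18 in WT (-0.21 to 0.57).

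With age in WT lungs in air, simple keratins and several others rose or fell. From E19 to P5, 3 keratins rose and 3 fell, against 14.6% of all genes called (8.34% higher and 6.24% lower), and from P5 to P56 4 rose and 3 fell, against 22.9% (12.1% higher and 10.8% lower). Krt19 went from 7743, 6720.1, 6359 and 5768 at E19 to 2509, 2444 and 2838 at P5 and 5331, 5422 and 5316 at P56, a fall of 1.34 on the log2 scale (SE 0.31, limma adjusted p = 0.00375) and then a rise of 1.04 (SE 0.33, limma adjusted p = 0.0212). The P5 values lay below those of both other ages without overlap; the rise stayed called only when WT P5 air replicate 3 was the array left out (limma adjusted p 0.053 to 0.0678 for the others). All 12 tested liver genes fell from P5 to P56 (median -4.06), and with the liver level as a covariate the Krt19 rise was 0.79 and not called (limma adjusted p = 0.23). Krt18 fell by 0.64 from E19 to P5 (SE 0.18, limma adjusted p = 0.017), a call lost without WT P5 air replicate 1 (limma adjusted p = 0.0763) or 2 (0.0589), whereas its partner Krt8 changed by -0.28 (95% interval -0.64 to 0.09) and was not called. Krt7 was called at neither step, at 0.00 and 0.38.

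Krt79, Krt80 and Krt23 rose at both steps. Krt79, a type II keratin known from hair follicle openings, read 68.1, 82.6, 91.3 and 102 at E19, 216, 350.4 and 515 at P5 and 1911, 1703 and 1382 at P56 in WT air. Its values did not overlap between the ages, and it rose by 1.72 (SE 0.28, limma adjusted p = 0.000237) and then by 2.19 (SE 0.30, limma adjusted p = 5.19e-06). Krt80 read 817, 886 and 610.3 at P5 and 1763, 1823 and 2596 at P56, and rose by 1.47 (SE 0.21) and 1.38 (SE 0.22). In KO the E19 values of Krt80 lay within or above the range of the P5 air lungs, 774, 748 and 866. Krt23, a type I keratin of several glandular epithelia, rose by 1.24 (SE 0.21) and 0.73 (SE 0.23), from 95.8, 107, 116 and 129 at E19 to 298, 263 and 343 at P5 and 549, 547 and 453 at P56; the later rise lost its call without replicate 1 or 2 of either group (limma adjusted p 0.0609 to 0.0924) and with the liver covariate (0.159). In KO P5 air, replicate 1 read 106 for Krt79 and 107 for Krt23, against 398 and 352 and against 263 and 286 in the other two, and so lay near the E19 lungs for both.

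**Figure D4:**
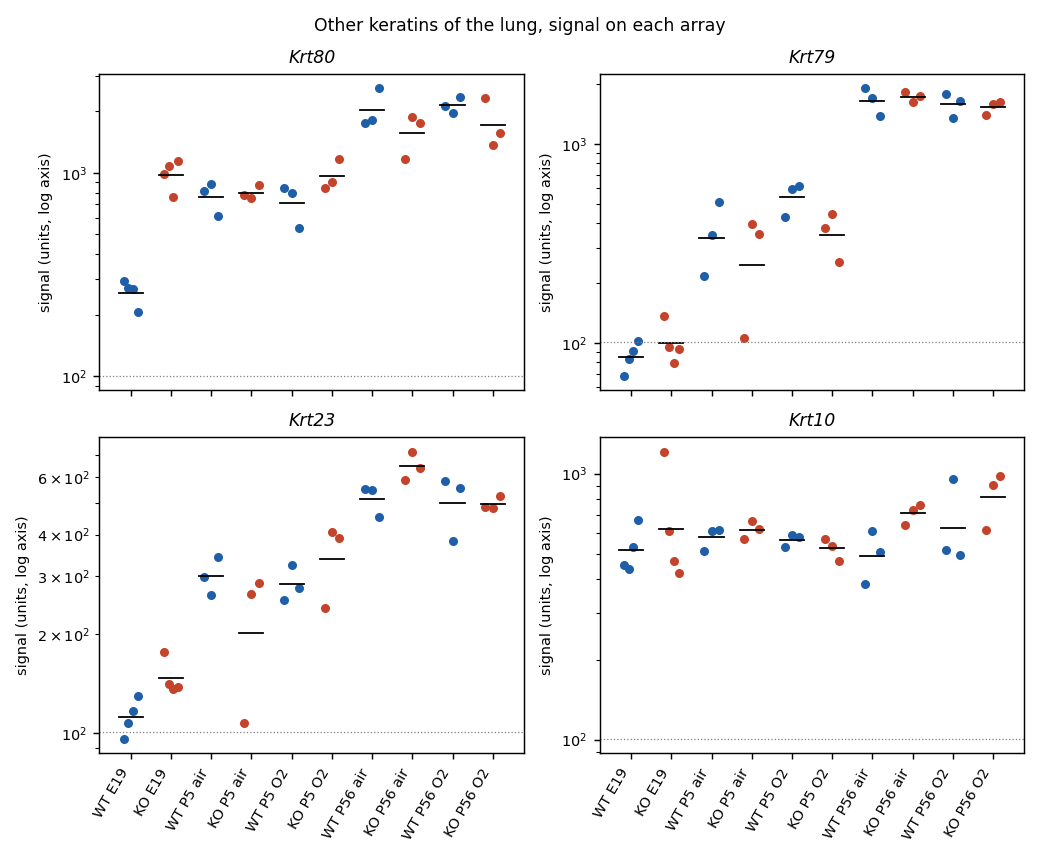
Signal of Krt80, Krt79, Krt23 and Krt10 (units, log axis) on each of the 32 arrays, by group; blue points are WT and red points KO arrays, black bars are the geometric means and the dotted line is the median of all values, 100.4. Krt79 and Krt23 are lowest at E19 and highest at P56 by group mean, Krt80 is higher in KO than in WT at E19, and Krt10 stays between 385 and 1210.3 units.

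Krt15, Krt13 and Krt4 fell with age. Krt15 fell by 2.39 on the log2 scale from E19 to P5 (SE 0.73, limma adjusted p = 0.0268) and by 3.52 from P5 to P56 (SE 0.78, limma adjusted p = 0.00142). Krt13 and Krt4 fell from P5 to P56 by 3.56 (SE 1.01, limma adjusted p = 0.0104) and 3.05 (SE 0.91, limma adjusted p = 0.0152), and from E19 to P5 they changed by 0.27 and 0.07, not called. The basal pair was called at neither step, with Krt5 at 0.20 and -0.98 and Krt14 at 0.42 and -0.55 (limma adjusted p = 0.223 and 0.486 from P5 to P56). The later falls rest on WT P5 air replicate 1: without it Krt13 was at -2.22 (limma adjusted p = 0.137) and Krt4 at -1.68 (0.197), and the count of called keratins went from 7 to 3. Krt4 also lost its call without WT P56 air replicate 3 (limma adjusted p = 0.0563). The earlier fall of Krt15 lost its call without WT E19 replicate 1 (0.0775) or 3 (0.058) or WT P5 air replicate 2 (0.15) or 3 (0.197).

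The remaining tested keratins were called in no comparison. Krt10, the type I keratin of the upper epidermis, lay between 385 and 1210.3 units, with its highest value on KO E19 replicate 1, and its epidermal partner Krt1 between 12.5 and 154. Krt42 lay between 263 and 691, Krt81, a hair keratin, between 131 and 297, Krt32, another hair keratin, between 51.9 and 159, Krt78 between 6.77 and 139 and Krt88 between 28.4 and 135. None of these 7 rose or fell in any of the 13 comparisons. Among the untested keratins, Krt17, a type I keratin of activated and basal cells, read 79.3, 73.8 and 41.9 in KO P5 hyperoxia, 102 on WT P5 air replicate 1 and 82.9 on WT E19 replicate 1, and 3.39, 5.41 and 6.86 in KO P5 air. Krt6b, a near copy of Krt6a, read 57.9, 139 and 57.04 in KO P5 hyperoxia and 23.8, 28.6 and 26.8 in KO P5 air. For Krt17 the 6 highest arrays were those of Krt13, but for Krt6b 65.9 units on WT P5 air replicate 2 and 60.9 on WT E19 replicate 4 lay above KO hyperoxia replicates 1 and 3. Krt17 and Krt6b each passed 100.4 units on 1 array only and were named after their values were seen.

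Second probe sets of Krt13 and Krt4 were also high in KO P5 hyperoxia. The 2 other Krt13 probe sets read 232, 362 and 189 and 220.2, 273 and 207 in KO P5 hyperoxia, against at most 3.06 and 7.73 in KO P5 air. The other Krt4 probe set read 1385, 3077 and 1443 in KO P5 hyperoxia and 22.4, 14.2 and 10.02 in KO P5 air. These probe sets were also high without hyperoxia on WT E19 replicate 1 and WT P5 air replicate 1. There the Krt13 sets read 427 and 400 and 291 and 236, and the Krt4 set 2440 and 1884. The 2 other Krt14 probe sets did not pass the filter and differed from each other. One read 115, 91.1 and 57.0 in KO P5 hyperoxia and 10.7, 5.16 and 7.89 in KO P5 air. The other read 26.4, 25.8 and 16.9 and then 20.3, 16.1 and 19.6. For Krt6a the choice of probe set mattered. The tested one read 169, 344 and 251 in KO P5 hyperoxia and 135, 113 and 123 in KO P5 air, while another read 458, 831 and 420.03 and 48.7, 29.3 and 43.8. With that probe set, which had the highest mean on the linear scale, Krt6a also rose with hyperoxia in KO at P5 and was called in the genotype-by-oxygen term, so that 5 and 4 keratins were called in place of 4 and 3. Krt6a and Krt6b are near-identical copies, and probe sets may read both.

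Some other genes of stratified squamous epithelium rose in the same comparisons as the stratified keratins. Of 33 listed, 22 were tested. In KO at P5 5 of these rose with hyperoxia and none fell, where 0.337% of all genes tested were called. The median change of the 22 was 0.82, against -0.009 over all genes tested. The 5 that rose included Pkp1, a desmosomal plaque protein (2.79), and Crct1 (2.38) and Krtdap (2.15), a pair of genes of differentiating keratinocytes. The others were Cnfn (1.83) and Sprr1a (1.62), both parts of the cornified envelope. Pkp1 read 332, 202 and 179 in KO hyperoxia, 12.7, 8.64 and 11.4 in KO air, 279.8, 16.7 and 5.55 in WT air and 5.08, 5.35 and 8.56 in WT hyperoxia. WT P5 air replicate 1 and WT E19 replicate 1, at 269.6, were the only other arrays over 100.4 units. Pkp1 thus passed the filter only with the KO P5 hyperoxia arrays, so its call there is a description and no further support. Against WT hyperoxia 4 rose, Pkp1, Crct1, Krtdap and Cnfn, where 0.187% of all genes were called. In the genotype-by-oxygen term 3 were called, Crct1, Cnfn and Krtdap, against 0.135% of all genes. At E19 5 of the 22 fell in KO and 2 rose (median -0.45, all genes -0.05), where 8.25% of all genes were lower and 6.91% higher, among them Tgm1, Sprr3 and Cnfn, which fell, and the protease inhibitor Spink5, which rose. The level of the list, the mean log2 value of its genes after subtracting each gene's own mean, was 0.47 to 0.94 in KO P5 hyperoxia and -0.41 to -0.11 in KO P5 air. It was 0.87 on WT E19 replicate 1, 0.24 on replicate 3 and 0.68 on WT P5 air replicate 1, and these 6 arrays had the 6 highest levels of the 32. Parts of this list were known from earlier results on these arrays, so its direction is not independent evidence.

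Some attachment and basal cell genes rose with the keratins with hyperoxia in KO at P5, where 0.337% of all genes tested were called. Of 15 desmosome genes 11 were tested, and Pkp1 and Dsc2, a desmosomal cadherin, rose with hyperoxia in KO at P5 (median of the 11, 0.26), Dsc2 by 1.94 (SE 0.41) with 246, 358 and 298 units in hyperoxia and 85.8, 63.8 and 32.7 in air. Pkp1 passed the filter only with the KO P5 hyperoxia arrays. Dsg3, Dsc3 and Dsg1a, the cadherins that mark stratified epithelium, did not pass it. None of the 8 tested hemidesmosome genes rose or fell there (median 0.13), and of 10 basal airway cell genes 1 rose, the water channel Aqp3 at 1.97 (median 0.07). At E19, where Krt13, Krt4 and Krt15 fell in KO, no gene of these lists fell in KO. Instead 3 of 11 desmosome, 1 of 8 hemidesmosome and 2 of 10 basal airway cell genes rose (medians 0.13, 0.14 and -0.37). Of all genes, 6.91% rose and 8.25% fell in that comparison. Trp63, the master regulator of basal cells, read 196, 158 and 127 in KO hyperoxia and 35.6, 29.99 and 50.2 in KO air, without overlap, and was not called; it was named after its values were seen. None of 13 general epithelial genes such as Epcam and Cdh1 rose or fell with oxygen in either genotype (medians 0.22 in KO and 0.27 in WT at P5), nor did any of 10 other intermediate filament genes such as Vim and Des. Alveolar type 1 (12), type 2 (11), club (10), ciliated (10) and mesothelial (11) genes gave 0 calls in the KO oxygen comparison at P5. Of 14 genes of the transitional alveolar state, in which Krt8 is high, 1 was called there, Sprr1a (median 0.49). In lists of this size 0 calls is near the 0.337% of all genes, so it says little of those cell types.

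Markers of tissues outside the lung were set beside these values. The muscle genes had a median change of 4.19 with hyperoxia in KO at P5, with the troponin Tnnc2 at 6.03. The muscle level was also raised on WT P5 air replicate 1 (2.76) and WT E19 replicate 1 (1.25), which had high Krt13, but it was -0.76 on WT E19 replicate 3, which had 1179 units of Krt13. It was 0.97 and 2.08 on WT P5 hyperoxia replicates 2 and 3, with 444 and 1577 units of Tnnc2 but 27.8 and 26.2 of Krt13. The liver level was -2.31 to -2.07 in KO P5 hyperoxia and -1.89 to 0.04 in KO P5 air. Of the 12 tested liver genes 0 were called between these groups. In KO at P56 the level was also low, at -1.89 to -1.52 in air and -2.06 to -1.92 after hyperoxia. Of the other arrays high in Krt13, WT P5 air replicate 1 was at 4.25, WT E19 replicate 3 at 5.27 and WT E19 replicate 1 at -0.34. Of the cornified epidermis genes 4 of 12 were tested and none rose or fell with oxygen or genotype, and Flg did not pass the filter; nor did any of the 6 tested cartilage or 4 tested thymus genes, and Rag1, Rag2 and Foxn1 did not pass the filter. In lists this short 0 calls is near the share of all genes called with oxygen, 0.337% in KO at P5. The part of such tissue in the keratin results was not tested.

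**Figure D5:**
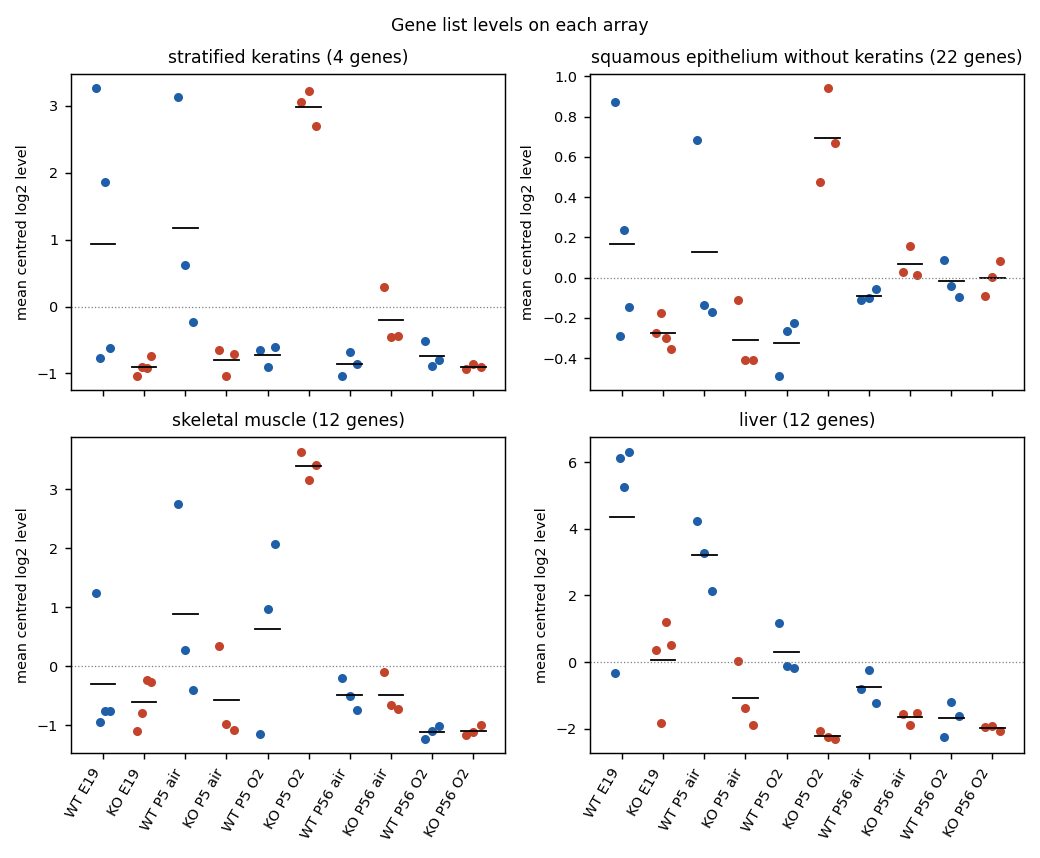
Level of 4 gene lists on each of the 32 arrays, by group: the stratified keratins, squamous epithelium without keratins, skeletal muscle and liver; the vertical axis is the mean log2 value after centring each gene on its mean over all arrays, blue points are WT and red points KO arrays, and black bars are group means. The 3 KO P5 hyperoxia arrays are high for both epithelial lists and for muscle and low for liver, while 2 WT P5 hyperoxia arrays are raised for muscle and not for the keratins.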

How the data were processed

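RNA from 32 mouse lungs was hybridised to Affymetrix arrays, 1 array per animal. The deposited values are linear signal intensities of 45101 probe sets, made by the authors with MAS5 per the submitters' processing notes with every array's trimmed mean near 500.0; the scanner files were not used here, and for arrays their number limits the precision. Gene names came from the platform annotation.

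Intensities were turned into log2(value + 26.3), the offset being the 25th percentile of all values, so a fold change of a dim gene is understated. A probe set was kept if 3 or more arrays exceeded 100.4, the overall median (27089 passed), and for each gene the kept probe set with 1 symbol and the highest mean log2 value was used (13345 genes). One linear model of the 10 groups, with 22 residual degrees of freedom, was fitted with limma 3.58.1 (R 4.3.3, eBayes with trend), giving 13 comparisons, each adjusted by Benjamini-Hochberg over all genes at 0.05. The fit was tested on simulated data first. Named were the simple and stratified keratins, every other keratin called at least once, the rest by range, and of each other list up to 4 called genes per comparison with the largest change. As an exception, all 5 squamous genes called with hyperoxia in KO at P5 were named. The members and lists were chosen with earlier results of these data known.

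Replicate numbers were checked for pairing: of 34 same-numbered pairs 10 correlated above 0.1 (range -0.41 to 0.27). Of 11 pairs of groups only KO and WT in P5 hyperoxia had all pairs above 0.1, and the fit with the block is given beside that comparison. The labels do not say that arrays were paired, and the main fit treated all groups as unpaired. No array was found to repeat another. Alternatives changed the offset, filter, scaling, probe set, array weights, replicate block, liver covariate and the arrays fitted, and left out each array in turn; the linear-mean choice of probe set was added after seeing the data. Figures were drawn with matplotlib 3.10.9.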

Additional observations from a re-analysis of the deposited data

Results flagged for a closer look

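The response to hyperoxia at P5 differed between the genotypes by a direct test for 3 keratins, with genotype-by-oxygen terms of 8.63 for Krt13, 7.86 for Krt4 and 3.86 for Krt5 on the log2 scale. In the same term 4 of 12 skeletal muscle genes were called (median 4.00). A fit of the 12 P5 arrays alone called 0 of the keratins, and Krt5 lost its call in 10 of 12 fits that left out 1 array.

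Single arrays stood far from the rest of their group of 4 at E19 for 3 keratins by Dixon's criterion. Krt18 read 3095 units on WT replicate 4, below the other three. Krt23 read 176 units on KO replicate 1, the array with the raised 3′ to 5′ ratio, above the other three. Krt81 read 175 units on WT replicate 2. These were 3 of 40 groups examined, 7.5%, where chance gives about 1 in 20.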

How the results depend on the processing

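Of 28 called pairs of a keratin and a comparison, none changed sign under any alternative, 9 kept the call under every one that was run for them and 19 lost it under at least one. The counts below are keratins called, and the cause of a shift was not tested. The share of all genes called was not recorded for the alternatives. The counts therefore do not show whether keratins gained or lost calls more than other genes did. KO against WT at E19 called 5; it called 8 with no filter, 2 with array weights, 2 with the liver covariate and 1 with the compared groups alone. KO against WT called 4 with array weights in P5 air and, in P5 hyperoxia, 6 with array weights, 0 with the liver covariate and 5 with the compared groups alone. In P56 air it called 1 with array weights and 2 with the compared groups alone, and in P56 hyperoxia 6 with array weights. Hyperoxia against air at P5 called 11 in WT and 10 in KO with array weights. The genotype-by-oxygen term at P5 called 5 with array weights and 0 with the compared groups alone. P56 against P5 in WT called 11 with array weights. Leaving out 1 array at a time gave 3 to 7 at E19, 0 to 2 for KO against WT in P5 hyperoxia, 1 to 4 for hyperoxia in KO at P5, 2 to 4 for the P5 term, 4 to 6 from E19 to P5 and 3 to 8 from P5 to P56. Centring arrays on their medians moved the median change of all genes at E19 by 0.28. The replicate block gave 5 at E19 and 4 for KO against WT in P5 hyperoxia and moved no count by over 1.5 times. In the latter it added Krt15. Only in those groups did all same-numbered arrays correlate above 0.1, and the labels do not say that arrays were paired. Groups of 3 or 4 arrays and signals near background limit what can be said of Krt14 and the untested keratins.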
